A study of Mus musculus with 22 samples.

Results

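Purinergic receptors and the adenosine pathway were followed in mouse spinal cord after a temporary interruption of aortic blood flow. The group was defined by a list of 9 genes, with each gene read on the probe set of highest mean signal among those that carry 1 gene symbol. Of the 9, P2rx4, P2rx7, P2ry2, P2ry6, Entpd1 and Nt5e were measured, which makes 6 of 18193 genes tested. The adenosine receptor genes Adora1, Adora2a and Adora2b had no probe set under their names in the probe annotation used and were not analysed here. Nothing measured entered the choice of the probe sets except the mean signal over all arrays, but the list itself was drawn up with earlier results of these data known.

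All mice were wild-type C57Bl/6 animals of 10 to 12 weeks, and total RNA was hybridised to Affymetrix Mouse430_2 arrays, 1 array per sample. Caudal cord (below T6) was taken 48 h (4 arrays, 271 to 274) and 24 h (3 arrays, 281 to 283) after an aortic cross-clamp of 7.5 min and after sham surgery (3 arrays, 278 to 280). Rostral cord (above T6) was taken 48 h (4 arrays, 271 to 274) and 24 h (3 arrays, 281 to 283) after the clamp and after sham surgery (4 arrays, 277 to 280). One more rostral array, 276, carried 48 h in one label and 24 h in another, and was put in no group. The labels do not give the time after sham surgery. They do not state whether each array is a different mouse, and a p-value therefore reflects only the array-to-array spread, which may be technical.

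Nucleotides such as ATP are released by damaged or stimulated cells and act on P2X receptors, which are ATP-gated ion channels, and on P2Y receptors, which are coupled to G proteins. Enzymes on the cell surface then take ATP apart: CD39 (Entpd1) removes phosphates from ATP and ADP to leave AMP, and CD73 (Nt5e) turns AMP into adenosine, which acts on receptors of its own. Adenosine is cleared by uptake through nucleoside transporters, by phosphorylation, and by deamination to inosine, which purine nucleoside phosphorylase splits further. In the central nervous system microglia carry several of these receptors, and use them to sense injured tissue.

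Values are log2 signals made by the authors with RMA, and changes are differences of group means on the log2 scale with their standard error (SE). They were tested with limma over all 18193 genes, and a gene was called changed when its Benjamini-Hochberg adjusted p was under 0.05. Array medians lay between 6.79 and 6.88, and lower quartiles between 5.17 and 5.52. Marker genes of neurons, astrocytes and oligodendrocytes had mean signals over 11 on every array. Both arrays numbered 283 went against their region labels: the mean of 4 caudal Hox genes was 5.62 on the array labelled caudal 283, against 8.91 to 9.52 on the other caudal arrays, and 9.37 on the array labelled rostral 283, against 5.43 to 5.71 on the other rostral arrays of the groups. Caudal array 271 had a narrower spread of signals (SD 2.05) than the others (2.21 to 2.27), and the Gapdh control had less 5-prime than 3-prime signal on caudal arrays 274 (−1.05) and 280 (−0.68).

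In caudal cord 48 h after the clamp, 2 of the 6 measured genes rose against sham, the receptor gene P2ry6 and the adenosine-producing enzyme gene Nt5e, and none fell. P2ry6 was 2.52-fold and Nt5e 2.26-fold higher. Of all genes tested, 12.5% were called in this comparison, and 5.52% were called higher. The median log2 change was 0.40 over the 6 genes and 0.0043 over all genes.

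P2ry6 encodes a receptor for UDP that is known for driving phagocytosis by microglia. Its log2 signal (probe set 1425214_at) was 7.53, 7.82, 8.31 and 7.82 on caudal arrays 271 to 274 at 48 h, against 6.35, 6.55 and 6.71 on sham caudal arrays 278 to 280. Every 48 h array lay above every sham array, which was the case for 8.9% of all genes in the upward direction. The log2 change was 1.34 ± 0.19 (SE), with a 95% interval of 0.94 to 1.73 and a limma adjusted p of 0.000206. No array decided this rise: with each array left out in turn the change stayed between 1.19 and 1.45 and was called each time. P2ry2, a receptor for ATP and UTP that lies next to P2ry6 on chromosome 7 with 0 protein-coding genes between them, had 5.67, 5.82, 5.46 and 5.09 at 48 h, against 5.40, 5.19 and 5.14 in sham. These groups overlapped and the difference of 0.27 ± 0.15 did not pass (adjusted p = 0.21). The P2ry2 signals lie close to the lower quartile of the arrays, so signal over background limits what can be seen of this gene, and without array 274 it passed (0.41, adjusted p = 0.0289).

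The ATP-gated channel genes P2rx4 and P2rx7, also neighbours, on chromosome 5, did not pass in either direction. P2rx4, a channel of spinal microglia known from work on nerve injury pain in rodents, had 8.77, 8.85, 8.83 and 8.93 at 48 h, against 8.82, 8.76 and 8.78 in sham. Arrays 272 to 274 lay just above the sham arrays and array 271 among them, and the difference of 0.05 ± 0.07 had a 95% interval of −0.09 to 0.20. P2rx7, a channel that opens at high ATP and is known for triggering the release of interleukin-1 from macrophages and microglia, had 7.93, 8.69, 8.21 and 8.31, against 8.44, 8.39 and 8.54 in sham. Its difference of −0.17 ± 0.13 (adjusted p = 0.345) had an interval of −0.45 to 0.11, and array 271 gave the lowest value and array 272 the highest.

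Of the surface enzymes, Nt5e (probe set 1428547_at) had log2 signals of 8.67, 8.65, 8.18 and 6.89 on caudal arrays 271 to 274 at 48 h, against 6.84, 7.0 and 6.92 on the sham arrays. Arrays 271, 272 and 273 lay above all sham arrays while array 274 lay among them. The log2 change was 1.18 ± 0.33 (adjusted p = 0.0284, 95% interval 0.48 to 1.87). Its call ended without 48 h array 271 (0.98, adjusted p = 0.0553) or 272 (0.99, 0.0611), and without sham array 278 (1.14, 0.102), 279 (1.22, 0.0712) or 280 (1.17, 0.0844). Entpd1 had 7.53, 7.29, 6.97 and 5.99 at 48 h, against 6.48, 6.28 and 6.49 in sham. Again array 274 stood low, here below all sham arrays, and the difference of 0.53 ± 0.23 did not pass (adjusted p = 0.113). Entpd1 passed without array 274 (0.85, adjusted p = 0.000159), and on all arrays with the mean of its probe sets (0.59, adjusted p = 0.0438) or with array weights, which count arrays with larger residuals less (0.54, adjusted p = 0.00152). A fit of these 7 arrays alone kept the call of P2ry6 (adjusted p = 0.0289) and ended that of Nt5e (adjusted p = 0.359).

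**Figure D1:**
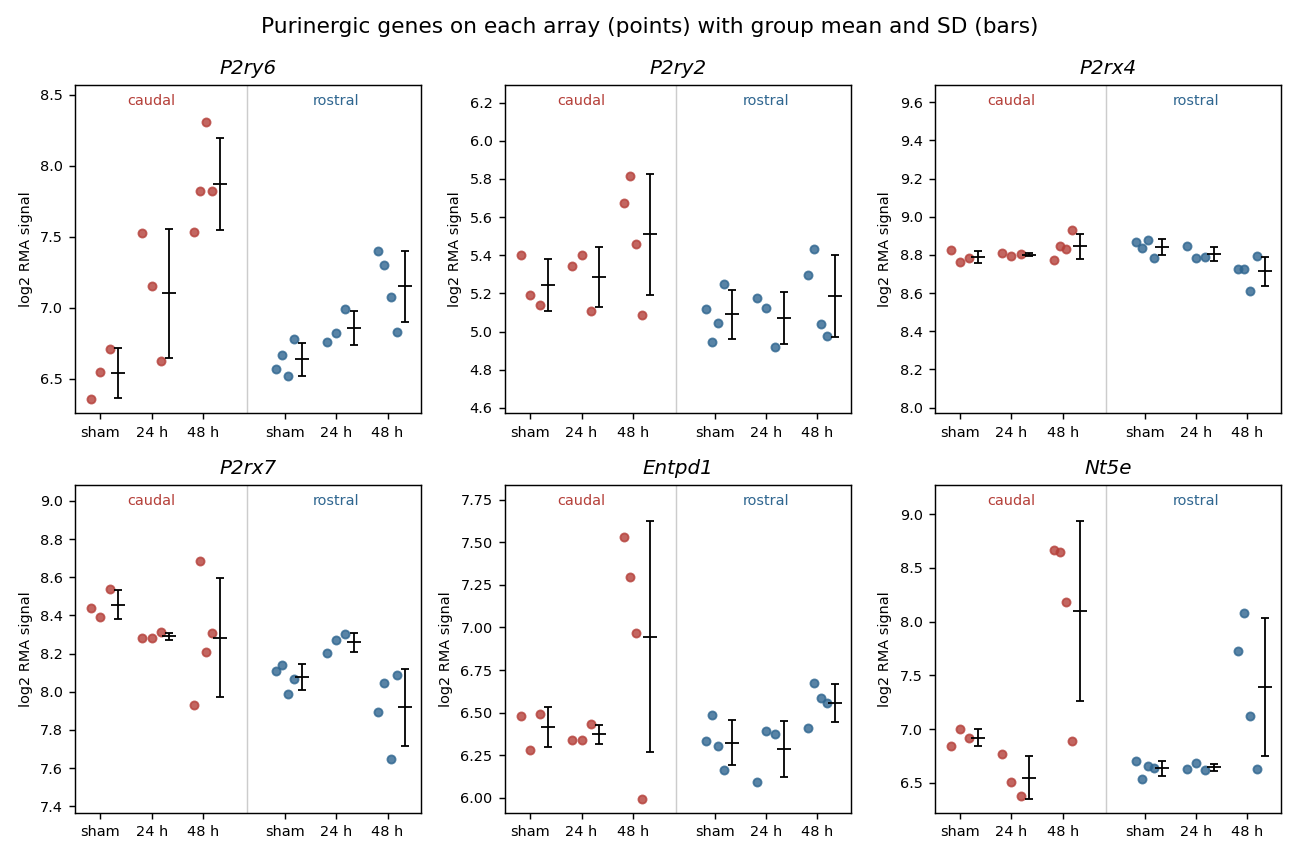
Log2 signal of the 6 measured genes on each grouped array, one panel per gene, with sham, 24 h and 48 h from left to right for caudal and for rostral cord. Points are arrays and bars show the group mean and SD; P2ry6 lies at 7.53 to 8.31 on the caudal 48 h arrays, above the 6.35 to 6.71 of caudal sham, while P2rx4 keeps within 8.61 to 8.93 in all groups.

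Other probe sets of the same genes were read as a check. A further probe set of Nt5e, 1422974_at, averaged 7.22 ± 0.31 (SD, n = 4) at 48 h and 6.62 ± 0.14 (SD, n = 3) in sham, a difference of 0.60 ± 0.13 that passed with limma over all probe sets (adjusted p = 0.00781). The remaining one, 1459023_at, differed by 0.20. The probe set 1423326_at of Entpd1 averaged 6.50 ± 0.54 (SD, n = 4) at 48 h and 5.80 ± 0.11 (SD, n = 3) in sham, and its difference of 0.70 ± 0.20 passed (adjusted p = 0.0321), while 1450939_at differed by 0.52 ± 0.18 (adjusted p = 0.072). Entpd1 thus pointed upward on all 3 of its probe sets, and was called on 1 of them. The other probe sets of P2rx4 differed by −0.02, 0.15 and 0.02. Those of P2rx7 disagreed in sign, with −0.23 for 1419853_a_at and 0.32 for 1422218_at, and neither passed. P2ry6 and P2ry2 have 1 probe set each, so no such check exists for them.

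The genes of the rest of the pathway moved both ways in caudal cord at 48 h. Of 28 measured out of 30 listed, 2 rose and 4 fell, against 5.52% of all genes higher and 7.02% lower. Both rises were in enzymes that break down adenosine or its product inosine. Ada, adenosine deaminase, had log2 signals of 8.87, 7.24, 7.74 and 6.01 on arrays 271 to 274, against 5.21, 5.28 and 5.32 in sham. The 48 h arrays spread widely but all lay above sham, and the change was 2.19 ± 0.48 (4.58-fold, adjusted p = 0.00718). Pnp, purine nucleoside phosphorylase, had 11.21, 12.02, 11.18 and 10.82, against 9.88, 9.82 and 9.91 in sham, a rise of 1.44 ± 0.22 (2.71-fold, adjusted p = 0.000318) with no overlap. Mice carry a neighbouring copy of this gene, Pnp2, and a further probe set named for both was not used; how far the signal of Pnp includes its copy was not tested. Ada and Pnp kept their calls with each array left out in turn.

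Among the falls, Entpd2, a surface enzyme that turns ATP mainly into ADP, had 8.12, 8.46, 8.97 and 9.24 at 48 h, against 9.30, 9.31 and 9.39 in sham, a change of −0.64 ± 0.18 (adjusted p = 0.0252). Slc29a2, the equilibrative nucleoside transporter ENT2, had 5.84, 6.49, 6.51 and 6.91, against 7.27, 6.95 and 7.16 in sham, a change of −0.69 ± 0.17 (adjusted p = 0.0124). For both genes every 48 h array lay below every sham array, as for 11.1% of all genes. P2rx6, a P2X subunit that joins other subunits, had 6.76, 6.63, 6.67 and 7.27, against 7.45, 7.24 and 7.36 (−0.52 ± 0.13, adjusted p = 0.0136), and array 274 overlapped sham. Panx2, a pannexin channel gene of neurons, had 6.70, 8.57, 9.05 and 9.71, against 9.91, 9.56 and 10.01 (−1.32 ± 0.43, adjusted p = 0.0489), with array 271 lowest. It kept its call with only 3 of the 21 arrays left out singly, and without array 271 the change was −0.72. P2rx6 and Slc29a2 lost their calls without sham array 278 (adjusted p = 0.0766 and 0.0742), and Entpd2 without array 272 (0.0541) or without sham array 278 (0.079), 279 (0.0685) or 280 (0.0874). For Ada and Pnp too, the call ended in a fit of the 7 compared arrays alone (adjusted p = 0.185 and 0.0564), as it did for the 4 genes that fell.

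By role, 0 of 5 other P2X receptor genes rose and 1 fell, and by limma 0 of 5 other P2Y receptor genes and the adenosine receptor gene Adora3 passed. Of 6 enzymes of extracellular nucleotides 1 fell, of 6 genes of adenosine removal and transport 2 rose and 1 fell, and of 5 genes of ATP release 1 fell. Of the 28 genes, 9 had an unadjusted p under 0.05, as did 34.3% of all genes. The median log2 change over the 28 was −0.12. Singled out after its values were seen, P2ry1, an ADP receptor, lay lower on every 48 h array than in sham, as for 11.1% of all genes. Its difference of −0.59 ± 0.19 was just short of the threshold (limma adjusted p = 0.0512). The gene passed under 5 of 13 other settings and with 6 of the 21 arrays left out singly.

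**Figure D2:**
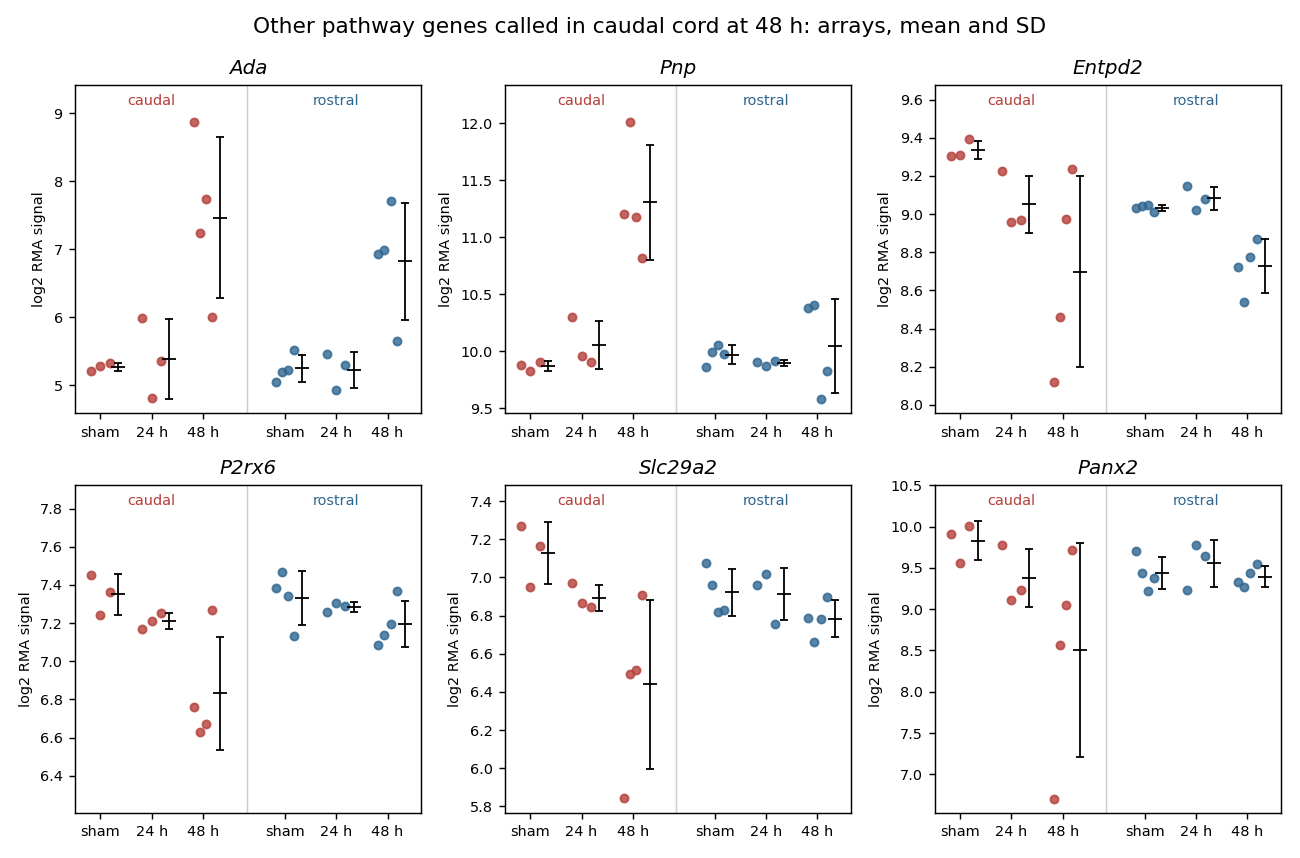
Log2 signal on each array of the 6 other pathway genes called in caudal cord at 48 h, with sham, 24 h and 48 h from left to right in caudal and rostral cord. Points are arrays and bars show the group mean and SD; Pnp lies at 10.82 to 12.02 on caudal 48 h arrays and at 9.58 to 10.41 on rostral 48 h arrays, while Ada is raised over sham on the 48 h arrays of both regions.

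The stretches before the gene starts are shown for the 3 genes of adenosine production and removal that rose together in caudal cord, and for P2rx4, which stayed level, so that their letters can be compared. Each is the 250 bases upstream of the RefSeq start (build GRCm38.p6), 5′ to 3′ on the strand of the gene. Capitals mark GC boxes, read as GGGCGG on either strand. Nt5e is at chr9:88327359-88327608 (plus strand), Ada at chr2:163750240-163750489 (minus strand), Pnp at chr14:50944053-50944302 (plus strand) and P2rx4 at chr5:122707294-122707543 (plus strand).
Nt5e: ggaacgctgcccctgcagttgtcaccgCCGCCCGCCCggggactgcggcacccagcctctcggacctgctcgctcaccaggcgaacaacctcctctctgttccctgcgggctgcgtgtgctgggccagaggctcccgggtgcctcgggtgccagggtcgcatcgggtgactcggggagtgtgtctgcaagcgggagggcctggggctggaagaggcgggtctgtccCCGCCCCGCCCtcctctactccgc
Ada: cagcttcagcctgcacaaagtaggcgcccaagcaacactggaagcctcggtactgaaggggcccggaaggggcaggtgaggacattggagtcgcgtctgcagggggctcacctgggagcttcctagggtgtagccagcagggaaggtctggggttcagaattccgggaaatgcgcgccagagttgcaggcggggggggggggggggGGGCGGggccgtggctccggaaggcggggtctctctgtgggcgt
Pnp: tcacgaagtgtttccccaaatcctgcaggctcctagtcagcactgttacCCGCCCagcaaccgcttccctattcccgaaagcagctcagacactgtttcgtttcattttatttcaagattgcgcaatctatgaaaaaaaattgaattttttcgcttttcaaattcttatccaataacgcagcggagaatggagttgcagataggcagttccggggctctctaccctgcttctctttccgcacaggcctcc
P2rx4: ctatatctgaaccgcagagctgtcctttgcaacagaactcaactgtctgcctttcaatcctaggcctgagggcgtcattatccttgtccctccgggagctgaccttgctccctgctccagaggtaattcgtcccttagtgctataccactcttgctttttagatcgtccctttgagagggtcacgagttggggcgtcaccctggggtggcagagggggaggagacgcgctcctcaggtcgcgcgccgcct
The GC box was found 4 times before Nt5e, in pairs of overlapping matches, 1 time before Ada, 1 time before Pnp and 0 times before P2rx4. Of 32841 such windows of all genes, 32.7% hold at least 1. The GC box does not separate the genes that rose from the others measured. It also lies before P2ry2, at both of its 2 starts, and before P2rx7, at start 1 of 2, and neither gene was called. That P2rx7 window holds an AP-1 site as well. Entpd1, also not called, had 0 matches to any motif searched at its 2 starts. None of the 4 stretches held an AP-1 site (TGANTCA, in 6.75% of windows), a cyclic AMP response element (TGACGTCA, 1.55%), a hypoxia response core (ACGTG, 16.6%) or a TATA box (TATAAA, 12.4%), searched on both strands. The ACGTG core lies within no other motif searched. These matches describe letters in the window, not binding. The table used has no entry for P2ry6.

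In rostral cord 48 h after the clamp, limma called 0 of the 6 genes against sham, where 0.61% of all genes were called, and 2 of the 6 had an unadjusted p under 0.05, as did 7.08% of all genes. P2ry6 had 7.40, 7.30, 7.07 and 6.83 on rostral arrays 271 to 274, against 6.57, 6.67, 6.52 and 6.78 on sham arrays 277 to 280. All 48 h arrays lay above sham, as for 4.63% of all genes, and the difference was 0.51 ± 0.18 (1.43-fold, adjusted p = 0.324). Nt5e had 7.72, 8.08, 7.12 and 6.62, against 6.70, 6.53, 6.66 and 6.64, with array 274 again down among the sham arrays (0.75 ± 0.31, adjusted p = 0.517). A second Nt5e probe set, 1422974_at, differed by only 0.15 ± 0.12 here. Entpd1 had 6.41, 6.67, 6.59 and 6.56, against 6.33, 6.49, 6.31 and 6.17 (0.23 ± 0.21), and P2ry2 differed by 0.10 ± 0.14.

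P2rx4 had 8.73, 8.73, 8.61 and 8.79 at 48 h, against 8.87, 8.84, 8.88 and 8.78 in rostral sham (−0.13 ± 0.06, adjusted p = 0.783). P2rx7 had 7.89, 8.04, 7.65 and 8.09, against 8.11, 8.14, 7.99 and 8.07 (−0.16 ± 0.12). Both channel genes thus overlapped between the groups. The median over the 6 genes was 0.17, against −0.02 over all genes. Of the other 28 pathway genes limma called 0, and 4 had an unadjusted p under 0.05, against the same 7.08% of all genes. Ada had 6.94, 6.99, 7.71 and 5.65, against 5.05, 5.20, 5.22 and 5.52, all above sham (1.57 ± 0.45, adjusted p = 0.162). Pnp had 10.38, 10.41, 9.58 and 9.82, against 9.86, 10.0, 10.05 and 9.97, a difference of 0.08 ± 0.20. Singled out after its values were seen, P2ry12, the ADP receptor of resting microglia, had 7.10, 7.21, 8.06 and 8.43, against 8.57, 8.85, 9.0 and 8.84, all below sham, as for 7.46% of all genes, but short of the threshold (−1.11 ± 0.40, adjusted p = 0.368). With array weights limma called P2ry6 (0.55, adjusted p = 0.0131), Nt5e (0.87, adjusted p = 0.0043) and Ada (1.64, adjusted p = 0.000438) higher in rostral cord. The same fit called P2ry12 lower (−1.23, adjusted p = 0.0136). The share of all genes called in it is not given.

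**Figure D3:**
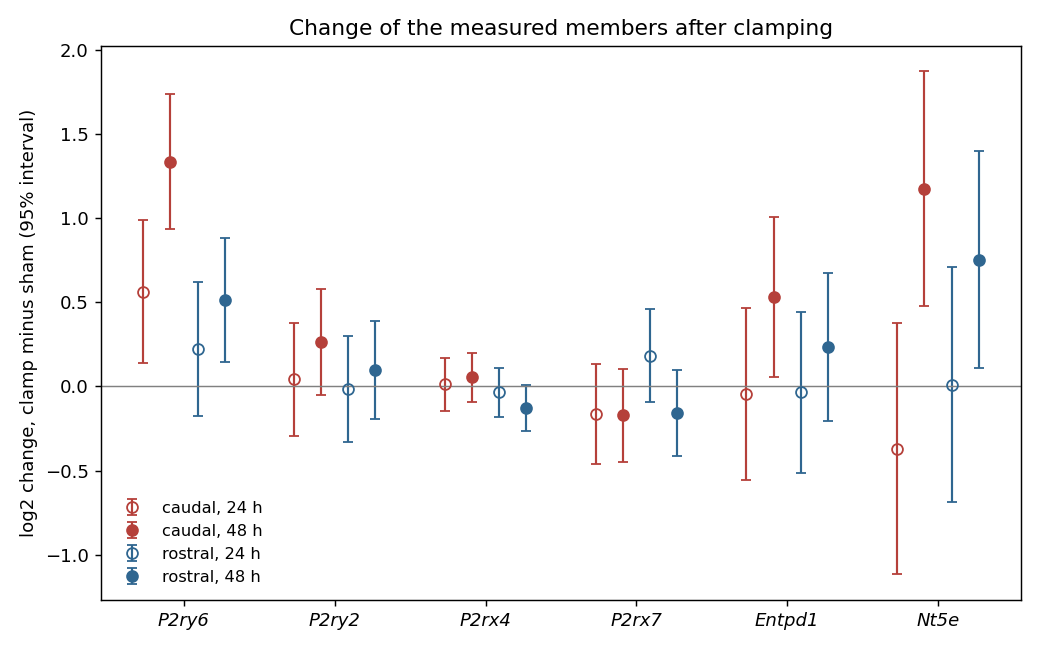
Log2 change against sham of the 6 measured genes, in caudal and rostral cord, with 95% intervals from the pooled spread; open symbols are 24 h and filled symbols 48 h. The caudal 48 h change of P2ry6 (1.34) lies farthest from 0, followed by that of Nt5e (1.18).

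At 24 h limma called none of the 6 genes against sham in either region. In caudal cord 0.0055% of all genes were called and 2.9% had an unadjusted p under 0.05, with P2ry6 alone among the 6. In rostral cord 0% were called and 0.781% had such a p, none of the 6. P2ry6 had 7.52, 7.15 and 6.62 on caudal arrays 281 to 283, against 6.35, 6.55 and 6.71 in sham, a difference of 0.56 ± 0.20. The value nearest sham was that of the array labelled caudal 283, whose region genes go against its label. Without both arrays numbered 283 the difference was 0.80 ± 0.20, and the adjusted p, at 0.9999, still did not pass. Nt5e had 6.77, 6.51 and 6.38, against 6.84, 7.0 and 6.92, all below sham, as for 10.5% of all genes (−0.37 ± 0.36). Its probe set 1422974_at went the other way, with 6.84 to 6.92 at 24 h, against 6.46 to 6.75 in sham, all above (0.27 ± 0.14, adjusted p = 0.999). The other caudal differences at 24 h were −0.04 (Entpd1), 0.04 (P2ry2), 0.01 (P2rx4) and −0.16 (P2rx7). Other probe sets differed in sign for 2 of these genes. For P2rx7, 1422218_at averaged 6.05 at 24 h and 5.68 in sham, and 1419853_a_at 6.66 and 6.67. For Entpd1, 1423326_at averaged 6.05 and 5.80, and 1450939_at 5.61 and 5.48. In rostral cord the differences of the 6 genes lay between −0.04 and 0.22, and between −0.08 and 0.16 without both arrays numbered 283.

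Set against the 24 h arrays, which shares the 48 h arrays with the comparison above, caudal cord at 48 h had higher P2ry6 and Nt5e, and these were 2 of 6 genes where 4.24% of all genes were called higher (6.69% in either direction). P2ry6 averaged 7.87 ± 0.32 (SD, n = 4) at 48 h and 7.10 ± 0.45 (SD, n = 3) at 24 h, a difference of 0.77 ± 0.19 (adjusted p = 0.0208). Nt5e averaged 8.10 ± 0.83 (SD, n = 4) at 48 h and 6.55 ± 0.20 (SD, n = 3) at 24 h, a difference of 1.55 ± 0.33 (2.92-fold, adjusted p = 0.00882). For both, every 48 h array was above every 24 h array, as for 5.91% of all genes. On 1422974_at the difference of Nt5e was 0.33 ± 0.13 and did not pass (adjusted p = 0.132), with overlapping arrays, and on the mean of its probe sets it was 0.66 and passed. Without both arrays numbered 283 neither passed, with 0.53 (adjusted p = 0.208) for P2ry6 and 1.46 (adjusted p = 0.0894) for Nt5e. That fit called 186 of all 18193 genes, in place of 1218. The loss of these calls can therefore not be told apart from a loss over all genes. Without array 282 alone P2ry6 did not pass (0.80, adjusted p = 0.0723). In a fit of these arrays alone neither passed (adjusted p = 0.501 for P2ry6 and 0.329 for Nt5e). Entpd1 differed by 0.57 ± 0.23 (adjusted p = 0.13), and P2ry2, P2rx4 and P2rx7 by 0.22, 0.04 and −0.01.

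Of the other pathway genes Ada (2.08 ± 0.48, adjusted p = 0.0148) and Pnp (1.25 ± 0.22, adjusted p = 0.00229) were also higher at 48 h than at 24 h in caudal cord. The call of Ada ended without 24 h array 282 (adjusted p = 0.104) or 283 (0.0766). In rostral cord limma called 0 of the 6 genes between the times, where 0.363% of all genes were called, and 2 of the 6 had an unadjusted p under 0.05, as did 5.25% of all genes. These were Nt5e (0.74 ± 0.33, adjusted p = 0.853) and P2rx7, which had 7.89, 8.04, 7.65 and 8.09 at 48 h, against 8.21, 8.27 and 8.30 at 24 h. Every 48 h value of P2rx7 was below the 24 h values, as for 6.33% of all genes, with a difference of −0.34 ± 0.13 (adjusted p = 0.619).

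Caudal and rostral cord were compared within each treatment. In sham, limma called 0 of the 6 genes, where 0.335% of all genes were called, and 1 of the 6 had an unadjusted p under 0.05, as did 5.51% of all genes. That gene was P2rx7, with 8.44, 8.39 and 8.54 on caudal arrays, against 8.11, 8.14, 7.99 and 8.07 on rostral ones. All caudal arrays were above all rostral ones, as for 12.1% of all genes, and the difference of 0.38 ± 0.13 did not pass (adjusted p = 0.557). In a fit of the sham arrays alone P2rx7 passed (adjusted p = 0.00906). Its other probe sets did not follow: 1422218_at had 5.53 to 5.79 on caudal arrays, all below the 5.79 to 5.88 of rostral ones (−0.17 ± 0.14), 1419853_a_at differed by 0.15 ± 0.20, and the mean of all 3 differed by 0.12. At 48 h P2ry6 was higher in caudal cord, 1 of 6 genes where 9.71% of all genes were called, 5.57% higher. Caudal arrays 271 to 274 had 7.53, 7.82, 8.31 and 7.82, against 7.40, 7.30, 7.07 and 6.83 on rostral arrays. No array overlapped, as for 5.23% of all genes, and the difference was 0.72 ± 0.18 (1.65-fold, adjusted p = 0.0144). The call ended without rostral array 274 (0.62, adjusted p = 0.059) and in a fit of these 8 arrays alone (adjusted p = 0.168). P2rx7 (0.37 ± 0.12, adjusted p = 0.0645), Nt5e (0.71 ± 0.31, 0.146), P2ry2 (0.32 ± 0.14, 0.145), Entpd1 (0.39 ± 0.21, 0.235) and P2rx4 (0.13 ± 0.06, 0.197) did not pass. The values above do not pair the arrays of a number, though deviations correlated by 0.25 to 0.53 within the 4 numbers of this comparison. With the number as a fixed block in limma Nt5e passed too (0.71 ± 0.13, adjusted p = 0.00645), being higher in caudal cord on 4 of 4 numbers. With a random block P2rx7 passed (0.37 ± 0.11, adjusted p = 0.036). The other P2rx7 probe sets differed less at 48 h. Probe set 1419853_a_at averaged 6.44 in caudal and 6.38 in rostral cord, and 1422218_at 5.99 and 5.81. Without caudal array 274, 4 of the 6 genes passed, and without caudal array 271, 2 did, P2rx7 among them (0.48, adjusted p = 0.0058). With single arrays left out, 1 to 11 of the other pathway genes passed in place of 1. The share of all genes called in those fits is not given. Pnp was also higher in caudal cord at 48 h (1.26 ± 0.20, adjusted p = 0.000734).

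Whether the 48 h response differed between the regions was tested as the caudal change minus the rostral change. Limma called 0 of the 6 genes, where 0.561% of all genes were called, and 1 of the 6 had an unadjusted p under 0.05, as did 12.2% of all genes. For P2ry6 the caudal change was 1.34 and the rostral change 0.51, which differ by 0.82 ± 0.26 (adjusted p = 0.222). For Nt5e they were 1.18 and 0.75, which differ by 0.42 ± 0.45 (adjusted p = 0.589). The 4 other genes differed by −0.01 (P2rx7) to 0.30 (Entpd1). Of the 28 other pathway genes Pnp passed, with a caudal change of 1.44 and a rostral change of 0.08 (difference 1.36 ± 0.30, adjusted p = 0.0415), and its call ended with 13 of the 21 arrays left out singly. Without caudal arrays 271, 274 and 280 the difference for P2ry6 was 1.10 and passed (adjusted p = 0.036). At 24 h limma called 0 of the 6 genes between regions, where 0% of all genes were called and 0.313% had an unadjusted p under 0.05, and likewise 0 of 6 for the difference of the 24 h changes (0% called, 1.86% with such a p). None of the 6 had an unadjusted p under 0.05 in either.

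**Figure D4:**
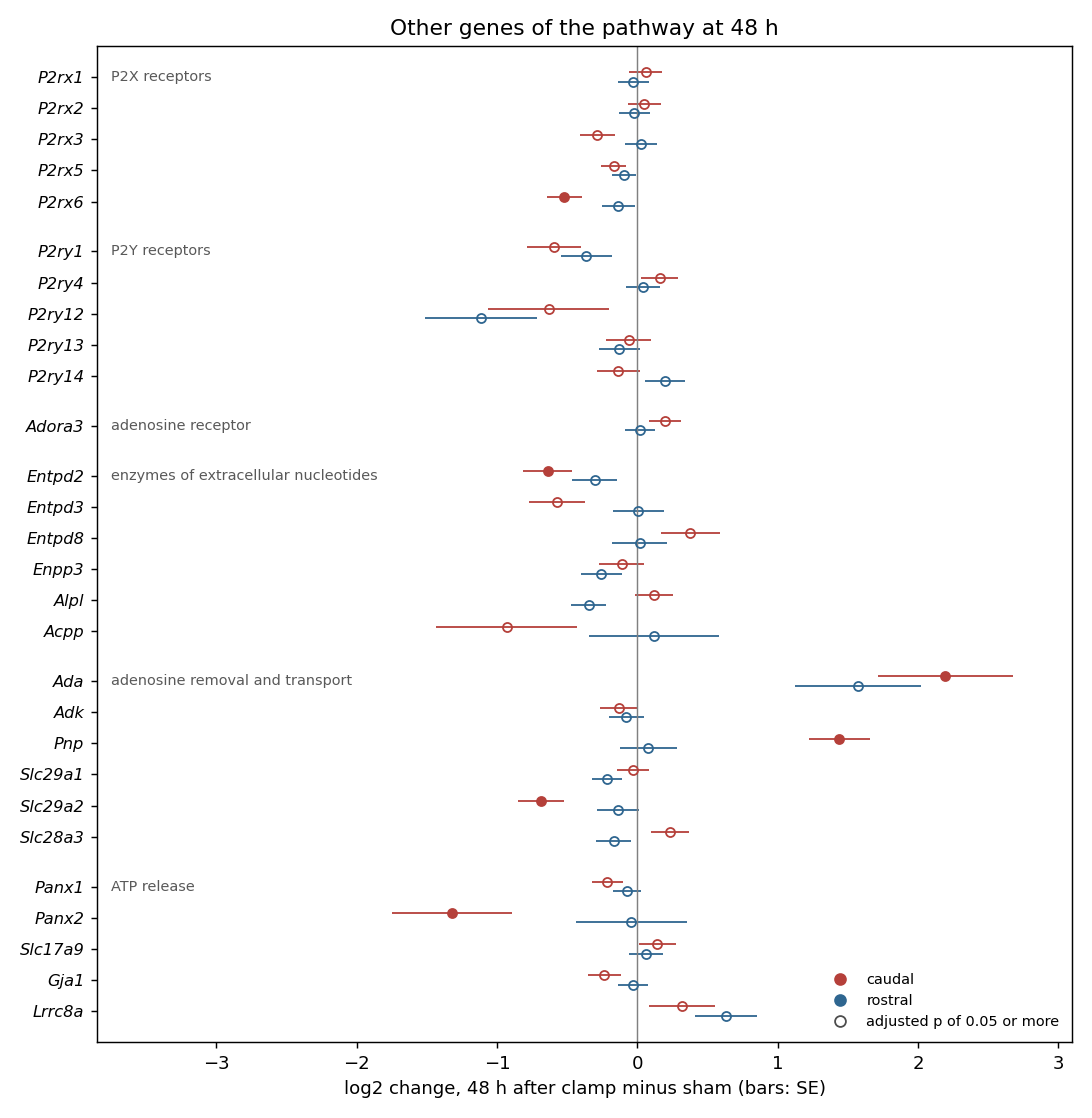
Log2 change at 48 h against sham of the 28 other pathway genes measured, grouped by role, for caudal and rostral cord; bars are standard errors and filled symbols are genes called. Filled symbols are Ada and Pnp above 0 and P2rx6, Entpd2, Slc29a2 and Panx2 below 0, all of them in caudal cord.

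The order of the group means differed from gene to gene. P2ry6 ran 7.87 ± 0.32 in caudal 48 h, 7.15 ± 0.25 in rostral 48 h, 7.10 ± 0.45 in caudal 24 h, 6.86 ± 0.12 in rostral 24 h, 6.63 ± 0.12 in rostral sham and 6.54 ± 0.18 in caudal sham (SD over the arrays of each group). Of these neighbours the first pair differed beyond its spread, as tested above, and the arrays of each later pair overlapped. Nt5e ran 8.10 ± 0.83 in caudal 48 h, 7.39 ± 0.64 in rostral 48 h, 6.92 ± 0.08 in caudal sham, 6.64 ± 0.03 in rostral 24 h, 6.63 ± 0.07 in rostral sham and 6.55 ± 0.20 in caudal 24 h, and no neighbouring pair that was tested passed. Caudal sham lay above rostral 24 h without overlap, a pair that was not tested. Entpd1 also had its highest mean and its widest spread in caudal cord at 48 h (6.95 ± 0.68), and the other 5 group means lay between 6.29 and 6.56. P2ry2 kept to means of 5.07 to 5.51. P2rx4 varied least, with means between 8.71 and 8.84, and P2rx7 ran between 7.92 in rostral 48 h and 8.46 in caudal sham.

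Across the 21 grouped arrays, the genes whose signal ran most like P2ry6 were Cxcl10 (Pearson r = 0.95), a chemokine, and Ifit3 (0.94) and Trim30a (0.94), both induced by interferons. For Nt5e they were Slc10a6 (0.97), Fga (0.97), the fibrinogen alpha chain, and Angptl4 (0.96). For Entpd1 they were Emd (0.92), Pgm2 (0.91) and Ccdc71l (0.90). P2ry2 ran most like Cfb (0.87), complement factor B, Rtn4rl2 (0.86) and Cpne8 (0.86), P2rx7 like Rab8b (0.86), Yap1 (0.83) and Cmtm6 (0.82), and P2rx4 like Arc (0.78), Pla2g4a (0.78) and Srsf9 (0.75). Among the 6 genes themselves, Entpd1 and Nt5e had an r of 0.83, P2ry2 and Nt5e of 0.79, P2ry6 and Nt5e of 0.69, and P2rx4 and P2rx7 of 0.50. These values describe arrays that share the 6 groups and the same normalisation, and carry no test.

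Marker genes of other cells moved in the same samples. Of all genes, 5.52% were called higher and 7.02% lower in caudal cord at 48 h, and 0.467% were called higher in rostral cord. Of 7 monocyte and macrophage markers measured, 4 rose in caudal cord at 48 h (Cd14 by 4.54, Fcgr1 by 2.79, Plac8 by 1.86 and F13a1 by 1.01), while Ccr2 (0.61), Lyz2 (0.94) and Ms4a7 (0.23) did not pass. Their mean signal was 10.16, 9.15, 8.94 and 8.57 on arrays 271 to 274, against 7.35 to 7.71 in caudal sham, and 7.46 to 8.13 on rostral 48 h arrays, against 7.36 to 7.49 in rostral sham. Of the 6 genes, Nt5e, Entpd1 and P2ry2 were lowest of the 4 caudal 48 h arrays on 274, as were Ada and Pnp. P2ry6, P2rx4 and P2rx7 were lowest on 271. Array 274 had the lowest Gapdh 5-prime signal against 3-prime (−1.05), and of these 4 arrays the highest microglia marker mean (8.66). Of 7 microglia markers, 2 rose (Fcrls by 1.91 and Olfml3 by 0.57) and 1 fell (Sall1, by −0.62) in caudal cord, with mean signals of 8.08 to 8.66 at 48 h, against 8.19 to 8.30 in sham. In rostral cord limma called 0 of the 7, and 5 had an unadjusted p under 0.05, as did 7.08% of all genes. The microglia means were 7.91, 7.66, 7.78 and 8.34 on rostral arrays 271 to 274 at 48 h, against 8.34 to 8.52 in sham. All lay below sham, array 274 only just. Of 6 endothelial markers 3 fell in caudal cord (Tek by 1.53, Slco1c1 by 1.47 and Cldn5 by 0.61), with means of 7.40 to 8.32 at 48 h, against 8.51 to 8.61 in sham. Of 4 neutrophil markers 1 rose (Mmp8 by 1.71), with means of 8.08 to 10.69 at 48 h, against 7.49 to 8.67 in sham. Of 6 neuron markers 2 fell, with means of 11.44 to 12.37, against 12.47 to 12.49. In caudal cord 1 of 5 astrocyte markers rose and 1 of 5 meningeal fibroblast markers fell. Of the 4 oligodendrocyte and 3 lymphocyte markers 0 were called there. Heart muscle markers rose in 5 of 6 in caudal cord (means 6.39 to 8.50 at 48 h, against 5.21 to 5.44 in sham) and in 6 of 6 in rostral cord (10.51 to 11.47, against 5.28 to 5.38). The part of these cells in the changes of the purinergic genes was not tested. In such bulk samples a change in the number of cells of a type and a change in RNA per cell cannot be told apart.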

How the data were processed

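Per the submitters' processing notes the authors made the deposited log2 signals with RMA, of no stated version; other processing by the authors is not given in the sources used here. They were used as deposited. The file holds 45101 probe sets, of which 64 are controls, 34945 carry 1 symbol, 932 several and 9160 none in the platform annotation. For each of 18193 genes the probe set with the highest mean over all 22 arrays was taken, and other probe sets served as a check. The 21 grouped arrays entered 1 linear model of the 6 group means (limma 3.58.1 with lmFit and eBayes; R 4.3.3, statmod 1.5.0), with the spread pooled over all groups (18.7 degrees of freedom). Tests are two-sided, and each comparison was adjusted on its own. The script was tested on simulated data. No 2 arrays held identical values (highest correlation 0.9979).

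The 9 genes, the 30 other pathway genes, the 68 marker genes (61 measured), the motifs and the alternatives were chosen with earlier results of these data known. The rule for naming took all 9 genes in every comparison, the other pathway genes that passed, and the 3 most alike genes by Pearson correlation. Alternatives were the mean of probe sets, every probe set as a feature, brighter genes only, repeated quantile normalisation, median centring, array weights, a robust eBayes with a trend, a 2-fold minimum, only the 2 groups being compared, array 276 in either group, leaving out arrays that stood apart, the number in the title as a block, and each array left out in turn. The labels do not say that a number marks an animal. The correlation of deviations between the 2 arrays of a number was 0.25 to 0.53 for all 4 numbers at 48 h. It was 0.09 to 0.28 for the sham numbers and −0.45 to −0.03 for the 24 h numbers. The −0.45 is that of number 283, whose region genes go against both labels. The main fit took no numbers as pairs in any comparison, and a block on the number was an alternative only. Arrays have no read depth, and their number limits the precision.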

Additional observations from a re-analysis of the deposited data

Results flagged for a closer look

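The clamp effect on Pnp at 48 h differed between the regions: the caudal change of 1.44 exceeded the rostral change of 0.08 by 1.36 ± 0.30 (limma interaction, adjusted p = 0.0415), with all 4 caudal 48 h arrays above sham. The call ended with 13 of the 21 arrays left out singly (highest adjusted p 0.135), and the difference was 1.12 to 1.52 with an array left out.

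The rostral array 276, which is in no group, had a signal above every rostral sham array for P2rx4 (8.93, against at most 8.88), P2ry6 (6.89, against at most 6.78) and Entpd1 (6.6953, against at most 6.49). Its P2rx4 signal also lies above the rostral 24 h arrays (at most 8.85) and those at 48 h (at most 8.79). The share of all genes above every rostral sham array is not given, nor are the other measured genes of the list on this array. Its P2ry6 signal lies between the values of the rostral 24 h arrays (6.76 to 6.99) and also within those at 48 h (6.83 to 7.40), and its heart muscle marker mean was 10.95, against 5.37 to 5.74 on the rostral 24 h arrays and 10.51 to 11.47 on those at 48 h. In the 36 groups of 4 arrays looked at, no value stood apart by Dixon's criterion.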

How the results depend on the processing

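The rise of P2ry6 in caudal cord at 48 h kept its direction and its call under all 13 other settings (1.34 to 1.76) and with each of the 21 arrays left out. Several of these could not move the size of the change. P2ry6 has 1 probe set, so the settings on probe sets leave its values as they are. Array 276, and single arrays outside the groups of this comparison, enter only through the pooled spread. Of the 6 genes, the 2 called in that comparison became 0 among brighter genes, where only 2 of the 6 are tested, and 1 in a fit of the compared groups alone and 3, with Entpd1 added, with the mean of probe sets, with array weights and without caudal arrays 271, 274 and 280 (1 to 4 with single arrays left out: 4 without array 274, 1 without 271, 272, 278, 279 or 280). In rostral cord at 48 h array weights called 2, against sham and against 24 h alike, in place of 0. For caudal 48 h against 24 h, the 2 became 0 among brighter genes, 0 in the compared groups alone, 1 at 2-fold, 0 without both arrays numbered 283, and 3, with Entpd1 added, with array weights and without caudal arrays 271, 274 and 280 (0 to 3 over single arrays). In sham the 0 became 1 with array weights and 2 in the compared groups alone. For caudal against rostral cord at 48 h the 1 became 0 among brighter genes, in the compared groups alone and at 2-fold, 2 with repeated quantile normalisation, with median centring and with array 276 as 48 h, 4 with array weights and 5 without caudal arrays 271, 274 and 280 (0 to 4 over single arrays). With the title number as a replicate block it was 2, with P2rx7 added by the random block and Nt5e by the fixed one, and of the other pathway genes 4 and 2 passed in place of 1. In the other comparisons the random block changed no other count of these 6 genes. For the difference of the 48 h effects the 0 became 1 with array weights and without caudal arrays 271, 274 and 280 (0 to 1 over single arrays). All 24 h comparisons with sham and between regions stayed at 0. The sign of P2rx7 in caudal cord at 48 h turned to 0.0334 without caudal arrays 271, 274 and 280, and that of Pnp in rostral cord ranged from −0.0415 to 0.235 over single arrays. Of the other pathway genes, the 6 called in caudal cord at 48 h ranged from 0 to 12 over the settings and from 2 to 11 over single arrays, the 2 against 24 h from 0 to 7 and from 1 to 7, and the 0 in rostral cord at 48 h from 0 to 6 and from 0 to 3. Where no construction of a setting shows it, the cause was not tested. Except for the fit without the arrays numbered 283, the share of all genes called under each setting is not given. A change of these counts can therefore not be told apart from a change over all genes. Signals near the lower quartile, as for P2ry2, limit what can be seen.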
